A study of Mus musculus with 249 samples.

Results

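The stretch of mouse chromosome 11 from 85 to 95 Mb (mm9) was taken as every 40 kb window of the deposited table that lies wholly between these coordinates, which gave 250 of the 68162 listed windows. Its calls come from genome architecture mapping (GAM), here applied to embryonic stem cells of the mouse line 46C, which is of strain 129/Ola and carries a green fluorescent protein reporter at the Sox1 gene. GAM cuts frozen nuclei into thin sections, collects slices of nuclei (nuclear profiles) by laser, and amplifies and sequences the DNA that each tube holds. Because a slice samples only a small part of a nucleus, nearness is read from how often 2 windows are positive in the same libraries. Each library pooled nuclear profiles of several cells. By their titles, each tube received 4 profiles, while the series description gives a lower mean number per library.

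All libraries came from this cell line, grown with LIF and moved to serum-free medium before harvest, and only libraries kept after the authors' quality control are in the table. They fell into 11 experiments on the protocol. Amplification reagents were used at the volumes of protocol A in 10 libraries, of protocol B in 11 and of protocol C in 10. Proteinase K was titled 1 µl in 5 libraries and 2 µl in 6. The freezing experiments compared libraries frozen after incubation (10) with unfrozen libraries (11), and early freezing (12) with late freezing (11). PCR ran for 20 cycles in 4 libraries, 23 in 5 and 25 in 3. Sections stained with the dye cresyl violet gave 16 libraries and unstained sections 10, and the large kit gave 11 and the small kit 12. The unstained arms of the propidium iodide (20), eosin (18) and SYBR Gold (10) tests and a full collection of 54 libraries completed the set. The table holds positive and negative calls of DNA windows and no expression, so the identity of the cells could not be checked against marker genes. Libraries held 3.40% to 45.2% of all windows (median 17.1%). Nothing in the labels says that libraries came from separate cultures, so p-values measure the spread between these libraries, which may be technical.

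Chromosomes fold into domains, stretches of DNA that contact themselves more than their neighbours. Domain borders are often bound by CTCF, a zinc finger protein that halts the loop-extruding cohesin ring. On a larger scale, gene-rich and active chromatin tends to associate with other active chromatin, and gene-poor chromatin with gene-poor chromatin. The stretch from 85 to 95 Mb combines both kinds of chromatin and holds Msi2, which encodes a Musashi RNA-binding protein of stem cells, Nog, which encodes the secreted BMP antagonist noggin, and Hlf, which encodes a PAR bZIP transcription factor.

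The annotation placed 99 starts of protein-coding genes in the stretch. A 1 Mb block was called gene-dense when it held more starts than the median of 6 over 2463 autosomal blocks, and gene-poor otherwise. The gene-dense blocks were 86 to 87 Mb (16 starts), 87 to 88 Mb (21), 88 to 89 Mb (10) and 94 to 95 Mb (28). Among the gene-poor blocks, those from 85 to 86 Mb and from 93 to 94 Mb held 6 starts each, which is the median. Those from 89 to 90 Mb and from 90 to 91 Mb held 5 each, so gene-poor here includes blocks at or near the median. The blocks from 91 to 92 Mb and from 92 to 93 Mb held 1 start each, those of Kif2b and Car10. GC content averaged 43.02% over the windows of the stretch and 41.9% over autosomal windows. It was lowest in the block from 91 to 92 Mb (37.8%) and highest in that from 94 to 95 Mb (48.9%).

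The core of the CTCF motif, searched on both strands as CCA, any 2 bases, AG, any 2 bases and GGC, was present in 85.6% of the windows of the stretch and in 75.8% of autosomal windows. The matches printed here lie nearest to the middle of the windows with the 3 most prominent insulation minima described further on, and they show what the motif looks like where linkage across a window was lowest relative to its surroundings. Each is given 5′ to 3′ on its own strand in mm9, with the 12 bases of the core in capitals. A match describes the letters and does not show that CTCF was bound.
Minimum 6, chr11:91903214-91903243, minus strand, intergenic: tgaagacgaCCAGAAGGGGGCtccctttca
Minimum 4, chr11:88975742-88975771, plus strand, intergenic: atgcctctgCCAGGAGGAGGCtcaaattag
Minimum 5, chr11:90488896-90488925, minus strand, in an intron of Stxbp4: tgctgcctgCCATTAGTTGGCttgctaggc

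The windows that hold the starts of Msi2, Nog and Hlf are followed through the results as a series of loci on both sides of the change in gene density. Promoter sequences of Msi2 and Hlf were taken from RefSeq (GRCm38.p6, from 250 bases before to 50 bases after the most upstream start), which matched 2 of these 3 genes. Both are on the minus strand and are printed 5′ to 3′ with GC boxes, GGGCGG on either strand, in capitals.
Msi2 promoter: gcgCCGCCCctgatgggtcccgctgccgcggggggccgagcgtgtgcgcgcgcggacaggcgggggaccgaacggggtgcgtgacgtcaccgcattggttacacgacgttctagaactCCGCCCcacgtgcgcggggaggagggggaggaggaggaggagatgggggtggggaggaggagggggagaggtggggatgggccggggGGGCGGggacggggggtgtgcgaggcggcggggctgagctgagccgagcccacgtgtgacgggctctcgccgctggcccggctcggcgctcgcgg
Hlf promoter: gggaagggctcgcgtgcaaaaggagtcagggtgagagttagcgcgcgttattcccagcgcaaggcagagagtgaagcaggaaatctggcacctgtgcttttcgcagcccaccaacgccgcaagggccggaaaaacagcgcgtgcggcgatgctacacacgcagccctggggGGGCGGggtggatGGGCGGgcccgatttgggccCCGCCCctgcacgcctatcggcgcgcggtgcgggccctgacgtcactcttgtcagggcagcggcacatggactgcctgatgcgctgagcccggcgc
Each promoter held 3 GC boxes, and 35.9% of 27025 promoters of the same length held at least 1. The Msi2 promoter held 39 CpG dinucleotides and that of Hlf 30, while the median promoter held 7. Neither held the CTCF core, which 2.39% of these promoters did.

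Mean detection by block was highest from 86 to 87 Mb (65.8 libraries), lowest from 92 to 93 Mb (41.1) and 55.6 in the last block. Windows of the stretch were positive in 52.7 ± 10.4 libraries (SD over 250 windows), with a range of 17 to 77. The windows of highest detection were chr11:85120001-85160000 (77 libraries), which holds the start of Ppm1d, and chr11:86400001-86440000 (75) inside Vmp1. Next, tied at 74, were chr11:87840001-87880000 with the start of Srsf1, which encodes a splicing factor, and chr11:86280001-86320000 at Rnft1 and Rps6kb1. Those of lowest detection among windows positive in at least 25 libraries were chr11:92440001-92480000 (26 libraries), which holds no protein-coding gene, and chr11:93120001-93160000 (31) inside Car10. Next, tied at 32, were chr11:91960001-92000000 and chr11:92840001-92880000, also without a gene. A single window, chr11:88400001-88440000 inside Msi2, stood below that minimum with 17 libraries. Most of its bases are unknown in the assembly, and it was left out of all pairs.

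**Figure D1:**
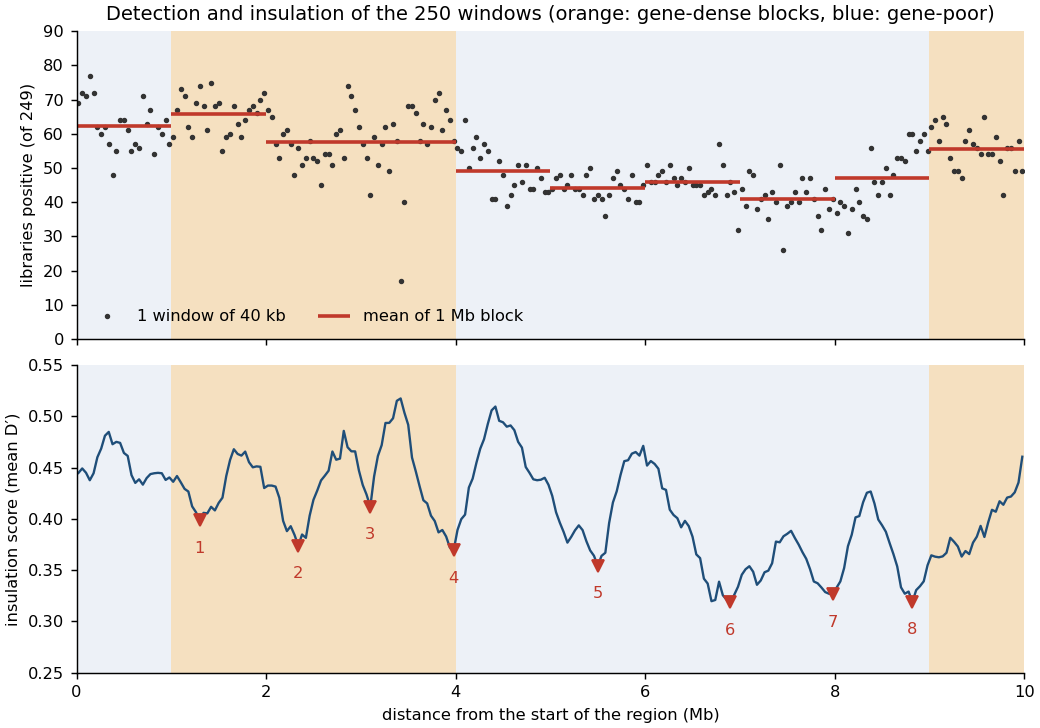
Top, number of libraries in which each 40 kb window was positive (points) and the mean of each 1 Mb block (red lines), by distance from the start of the stretch in Mb; bottom, insulation score (mean D′ in a 400 kb square) with the 8 minima (triangles). Orange shading marks gene-dense and blue shading gene-poor blocks; block means run from 65.8 libraries in the second block to 41.1 in the eighth.

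To compare blocks, the percent of a block's windows that were positive was taken in each library, minus the percent over the other 9 blocks, and a sign-flip permutation test, two-sided and adjusted over 10 blocks, was run over all libraries. The block from 86 to 87 Mb, with the starts of Med13 and Vmp1, was positive in 26.4% of its windows against 20.6% in the other blocks (difference 5.87 percentage points, SE 1.498, adjusted p = 0.0006). This block was higher in 114 libraries and lower in 116. The block from 85 to 86 Mb, with the T-box genes Tbx2 and Tbx4, was also higher (4.34, SE 1.64, adjusted p = 0.022, 99 libraries higher and 129 lower). The block from 92 to 93 Mb was lower by the most (-5.18, SE 1.34, adjusted p = 0.0006, 161 libraries lower), followed by that from 90 to 91 Mb (-3.78, SE 1.14, adjusted p = 0.0028, 161 libraries lower). The block from 91 to 92 Mb lay at the threshold (-2.999, SE 1.33, adjusted p = 0.05), and its call was lost when any of 8 of the 11 experiments was left out (adjusted p from 0.0573 to 0.176) and kept without the eosin test, the full collection or the kit experiment, with differences from -4.38 to -2.19 over all 11. The other 5 blocks did not pass the test, with differences from -2.52 to 2.25. The call for the block from 85 to 86 Mb was lost without the propidium iodide test (3.63, adjusted p = 0.0597). The block from 86 to 87 Mb had at least 50% of its windows positive in 64 libraries and none in 81, while that from 92 to 93 Mb had 50% in 32 and none in 121.

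Detection rose with GC content across all windows of known sequence (Pearson r 0.344, Spearman rho 0.400). The 25 windows of lowest GC content (mean 37.0%) were positive in 46.0 ± 8.8 libraries (SD) and the 25 of highest GC content (mean 50.5%) in 55.8 ± 6.7. Neighbouring windows share libraries and base composition, so this is a description of the stretch. The part of GC content in the differences between blocks was not tested.

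As a whole the stretch was positive in 21.2% of its windows per library, against 19.4% of other autosomal windows. The difference of 1.78 percentage points (SE 1.03) did not pass the sign-flip permutation test (adjusted p = 0.256 over 3 comparisons), and 110 libraries had the higher value in the stretch. Against the rest of chromosome 11 the difference was -0.778 (SE 0.861, adjusted p = 0.367), and against a stretch of equal length on chromosome 4 from 80 to 90 Mb it was 1.62 (SE 1.47, adjusted p = 0.367). Leaving out each experiment in turn, the difference ran from 1.33 to 2.90 against other autosomal windows. It ran from -1.24 to -0.25 against the rest of chromosome 11 and from 0.638 to 2.68 against the chromosome 4 stretch.

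Single libraries held very different amounts of the stretch, from 0% to 83.6% of its windows (median 17.2%). It had no positive window in 19 libraries, under 5% of windows in 59, from 5% to 50% in 167 and at least 50% in 23, and no library reached 90%. Positive windows formed 4195 runs of adjacent windows with a median length of 80 kb, and 45.6% of the runs were single windows. Runs of at least 1 Mb numbered 32 in 23 libraries, and the longest covered 2800 kb.

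Means per experiment ran from 14.6% ± 13.8 in the full collection (SD, 54 libraries) and 15.0% ± 16.8 in the SYBR Gold test (10) to 27.8% ± 21.4 in the PCR experiment (12) and 30.6% ± 23.9 in the propidium iodide test (20). The 11 experiments differed in this raw percent (permutation test of the F statistic, F = 2.06, p = 0.0289). Once the percent over other autosomal windows was subtracted in each library, the same test gave F = 1.00 and p = 0.443. The highest mean differences were those of the propidium iodide test (6.99, SE 5.00) and the PCR experiment (6.30, SE 6.09), and the lowest that of the full collection (-2.25, SE 1.70).

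**Figure D2:**
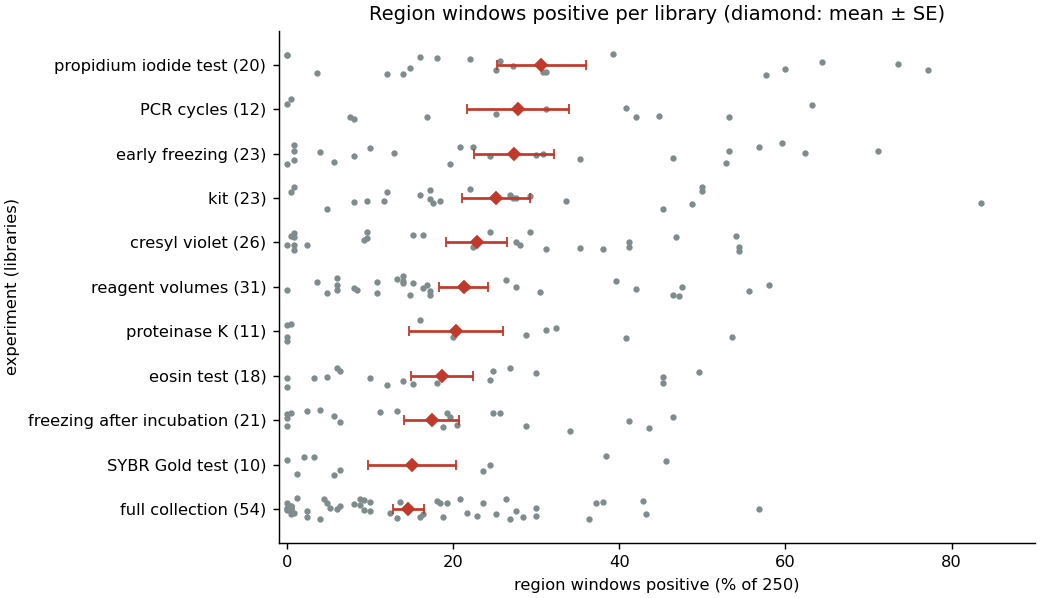
Percent of the 250 windows positive in each library (grey points) for the 11 experiments, ordered by mean; red diamonds give the mean and its standard error over libraries, and the number of libraries stands in brackets. The ranges overlap in all experiments, and the full collection has the lowest mean, 14.6%.

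Within experiments, 11 contrasts between protocols were made on the percent of the stretch minus the percent of other autosomal windows. None passed the permutation test after adjustment, and 1 had an unadjusted p under 0.05. In early freezing, libraries held 10.0% to 71.2% of the stretch (median 49.6%, 12 libraries), and in late freezing 0% to 30.8% (median 5.6%, 11 libraries), so the groups overlapped. After subtraction, early freezing was 17.9 percentage points higher (p = 0.0247 by permutation, 0.272 adjusted). The 3 libraries of 25 cycles held 44.8%, 63.2% and 40.8%, and the 5 libraries of 23 cycles held 42%, 0.4%, 16.8%, 31.2% and 7.6%. Their difference after subtraction was 27.9 (exact permutation p = 0.0714, adjusted p = 0.393).

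For the cresyl violet experiment, each window positive in at least 3 of the 26 libraries was compared between stained and unstained sections with a two-sided Fisher's exact test. In the stretch, 231 windows were tested. At an unadjusted p under 0.05, 5 were positive less often in stained sections and 0 more often, against 2.25% and 0.355% of 59680 windows of the genome. After adjustment no window was called in the stretch or in the genome (0.0%), and the lowest adjusted p was 1. The window of lowest p, chr11:90960001-91000000, was missing from all 16 libraries of stained sections and present in 4 of the 10 without stain (p = 0.014, Fisher's exact test). With coverage taken into account in 3 strata, 3 windows were less and 5 more often positive at an unadjusted p under 0.05, against 2.35% and 1.77% of windows of the genome.

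Linkage was measured by co-segregation, the number of libraries in which both windows of a pair were positive. Each pair from 200 kb to 4 Mb apart was tested with a Cochran-Mantel-Haenszel test over 5 strata of library coverage, adjusted over all autosomal pairs. In the stretch, 18249 of 18783 pairs (97.2%) were together more often than the strata give. A pair was called when this excess had an adjusted p under 0.05, which held for 12624 pairs (67.2%). The share called was 72.0% of autosomal pairs and 74.3% in the chromosome 4 stretch. From 200 kb to 1 Mb it was 96.9% in the stretch, against 97.5% of autosomal pairs, and from 1 to 4 Mb 57.4%, against 65.1%. Pairs of a stretch share windows and libraries, so the shares were not tested against each other. In the full collection alone, 1825 pairs (9.72%) were called, against 13.5% of autosomal pairs.

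From 1 to 4 Mb, 79.8% of 1239 pairs between gene-dense blocks and 70.6% of 5075 pairs between gene-poor blocks were called, against 45.2% of 7799 pairs between a gene-dense and a gene-poor block. These classes differ in distance, because gene-dense pairs up to 4 Mb come from the 3 adjacent blocks of 86 to 89 Mb. Between neighbouring blocks, 85% were called for gene-dense pairs, 90.7% for gene-poor and 68.4% for mixed pairs. That mixed share rests on the blocks from 93 to 95 Mb (35.4%), since the other 2 mixed pairs, at 85.5% and 85.2%, were level with the gene-dense pairs. Between blocks whose starts are 2 Mb apart, 74.3% were called for the single gene-dense pair of blocks, 70.4% between gene-poor blocks and 53.3% for mixed blocks, and the 4 mixed pairs of blocks ran from 17.9% to 69.6%. At 3 Mb, 60.1% were called between gene-poor blocks and 38% for mixed blocks (12% to 59%). At an adjusted p under 0.05 in the same test, only 3 pairs were together less often than the strata give, and 0 in the chromosome 4 stretch. Such pairs were not counted over the autosomes. All 3 pairs joined adjacent windows between 88000001 and 88120000 with the same partner, chr11:91640001-91680000, at 3.56 to 3.64 Mb. There 4 to 6 libraries held both windows and 8.7 to 11.5 were expected (adjusted p from 0.043 to 0.0496).

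Of the start windows of the genes listed for pluripotency, Vezf1 (a zinc finger transcription factor), Msi2, Trim25 (a ubiquitin ligase of antiviral sensing) and Nog, all 6 pairs were called, of which 5 were 0.28 to 0.96 Mb apart. Under 1 Mb, 96.9% of pairs in the stretch and 97.5% of autosomal pairs were called, so this count is near the background. Msi2 was positive in 66 libraries and Coil, which encodes the Cajal body protein coilin, in 72. They were found together in 47, against 22.8 expected from the strata at a distance of 0.24 Mb (adjusted p = 2.44e-13). Vezf1 (71 libraries) and Msi2, 0.68 Mb apart, were found together in 46 with 22.3 expected (adjusted p = 4.6e-13). Among the genes of gene regulation, Ints2 (Integrator), Med13 (Mediator), Supt4h1 (transcription elongation) and Coil, 2 of 5 tested pairs were called, all 1.28 to 2.76 Mb apart, where the share from 1 to 4 Mb is 57.4% in the stretch and 65.1% over the autosomes. The lists differ in distance and were not compared. Ints2 and Supt4h1, 1.48 Mb apart, were together in 23 libraries with 17.5 expected (adjusted p = 0.0612).

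All 3 pairs among Msi2, Nog and Hlf were called, as were 97.5% of autosomal pairs under 1 Mb and 65.1% from 1 to 4 Mb. Ranked by p among all pairs of the stretch, they lay at percentiles 14.4 (Msi2 and Nog), 14.1 (Nog and Hlf) and 27.8 (Msi2 and Hlf). Msi2 (66 libraries) and Nog (56), 0.6 Mb apart, were together in 31 libraries with 17.7 expected (adjusted p = 1.14e-05). Nog and Hlf (44 libraries), 1.08 Mb apart, were together in 24 with 12.1 expected (adjusted p = 1.02e-05). Msi2 and Hlf, 1.68 Mb apart, were together in 26 with 16.3 expected (adjusted p = 0.00046). The size of the linkage was then read from D′, in which the excess of co-segregation over the product of both detection frequencies is divided by its largest possible value. D′ of Msi2 and Nog was 0.393 ± 0.0818 (jackknife SE over libraries), near the mean of 0.377 of chromosome 11 pairs at the same distance. D′ of Nog and Hlf was 0.414 ± 0.0904 against 0.306, and that of Msi2 and Hlf, the most distant of the 3 pairs, was 0.443 ± 0.0949 against 0.256. The z-score of D′ within the chromosome and distance was 2.11 for Msi2 and Hlf, 1.19 for Nog and Hlf and 0.172 for Msi2 and Nog. With standard errors of 0.0818 to 0.0949 the 3 pairs were not ranked, and in the test over coverage strata Msi2 and Hlf had the highest p of the 3.

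Among start windows of Hlf, Mmd, Stxbp4, Ankfn1, Tmem100, Kif2b (a kinesin that depolymerizes microtubules) and Car10 (a carbonic anhydrase-related protein), all 9 pairs under 1 Mb and 9 of 11 pairs from 1 to 4 Mb (81.8%) were called, beside 57.4% of all pairs of the stretch from 1 to 4 Mb and 65.1% over the autosomes. The pairs not called were Ankfn1 with Kif2b (1.92 Mb) and Hlf with Car10 (2.68 Mb). Mmd and Car10, 2.88 Mb apart, were together in 19 libraries with 8.5 expected (adjusted p = 1.51e-05). Kif2b and Car10, 1.52 Mb apart, were together in 19 with 8.3 expected (adjusted p = 1.03e-05). From 1 to 4 Mb, 7 of 17 pairs between this list and the gene regulation list (41.2%) were called, 5 of 10 with the near side list (50%), 6 of 12 with the far side list (50%) and 16 of 20 with the pluripotency list (80%). Near side genes (Tbx2, Tbx4, the DNA helicase gene Brip1 and Rnf43, which encodes a ubiquitin ligase that removes Wnt receptors) were called in all 3 pairs from 1 to 4 Mb among themselves and in 14 of 15 with the pluripotency list (93.3%). These counts are few, their pairs share windows, and no list was tested against the shares of all pairs. Over all 22 named genes, 110 of 149 tested pairs were called (73.8%), beside 67.2% of pairs in the stretch and 72.0% of autosomal pairs. Under 1 Mb it was 33 of 35 (94.3%) and from 1 to 4 Mb 77 of 114 (67.5%), so the named genes as a whole lay near the background.

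Among all pairs from 1 to 4 Mb, the pair of lowest p joined chr11:87640001-87680000, with the peroxidase genes Lpo and Epx and with Mks1, to chr11:88640001-88680000, which holds no protein-coding gene. These windows were together in 38 libraries with 16.3 expected (adjusted p = 1.86e-12), and D′ was 0.603 ± 0.0785 against 0.316 at this distance. The same window near Lpo paired with Akap1, 1.08 Mb away, in 35 libraries with 16.3 expected (adjusted p = 3.84e-10). Inside the gene-poor part, the gene-free windows chr11:91000001-91040000 and chr11:92680001-92720000, 1.68 Mb apart, were together in 27 libraries with 10.7 expected (adjusted p = 8.42e-10), with a D′ of 0.532 ± 0.0881 against 0.256. These 5 pairs, which include Vezf1 with Dgke and a gene-free window with Hlf, had a z-score above 0 in all 40 maps from 124 or 125 libraries. These maps hold the libraries that chose the pairs, so this describes their spread over libraries.

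In the block from 94 to 95 Mb, 35.8% of tested pairs were called, compared with 58.2% to 76.7% in the other 9 blocks. Every tested partner of this block outside itself lay in a gene-poor block, while the near gene-dense blocks were also paired with each other. At each separation from 1 to 3 Mb it had the lowest share of the mixed pairs of blocks. With its neighbour from 93 to 94 Mb 35.4% were called, against 85.5% and 85.2% for the other 2 neighbouring mixed pairs. With the block from 92 to 93 Mb 17.9% were called, against 60.2% to 69.6% for the others 2 Mb apart, and with that from 91 to 92 Mb 12%, against 28.2% to 59% for the others 3 Mb apart. At 4 Mb its share of 38.2% with the block from 90 to 91 Mb was within the range of the others (14.2% to 44%). The share of partners 1 to 4 Mb away that were called was 46.1% for the start window of Tob1, an antiproliferative gene, where 35 of 76 passed. It fell to 2 of 76 for that of Col1a1, which encodes the main chain of type I collagen. The Col1a1 window was positive in 42 libraries. It was together with Tob1, 0.72 Mb away, in 19 libraries with 14.2 expected (adjusted p = 0.0726), and with Nme1, 0.96 Mb away, in 16 with 12.7 expected (adjusted p = 0.211). The drop was shared by its neighbours. The 8 windows from 94640001 to 94960000 had 1 to 14 called partners of 76 each. At the other extreme, chr11:86240001-86280000, next to the first insulation minimum, had the highest share of called partners of all windows tested (97.6%), and the start windows of Tbx2 and Tbx4 had 68 of 75 each.

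**Figure D3:**
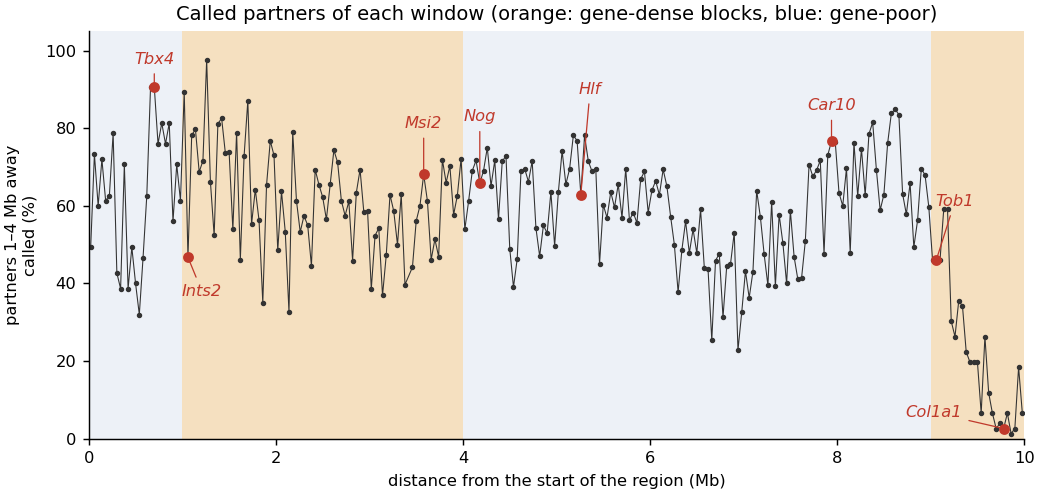
Percent of tested partners 1 to 4 Mb away, inside the stretch, that were called, for each window by distance from the start of the stretch in Mb. Called partners were together more often than the coverage strata give, at an adjusted p under 0.05 in the Cochran-Mantel-Haenszel test. Red points mark start windows of named genes and shading marks gene-dense (orange) and gene-poor (blue) blocks. The percent falls across the last 1 Mb to 2.63% at Col1a1.

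Linkage between whole blocks placed this drop. Mean D′ between the blocks from 94 to 95 Mb and from 93 to 94 Mb was 0.229 ± 0.0331 (jackknife SE), a difference of -0.0989 ± 0.0322 from the mean of chromosome 11 at the same distances. The same difference was -0.109 ± 0.0421 with the block from 92 to 93 Mb and -0.0932 ± 0.0375 with that from 91 to 92 Mb. It was -0.0161 ± 0.0368 with that from 90 to 91 Mb. With the blocks from 91 to 94 Mb, the last block had the lowest differences of all pairs of blocks in the stretch, which were not tested. With the blocks on its other side, outside the stretch, the differences were 0.00874 ± 0.0320 (95 to 96 Mb), -0.0237 ± 0.0337 (96 to 97 Mb), -0.00562 ± 0.0384 (97 to 98 Mb) and -0.0186 ± 0.0310 (98 to 99 Mb). Across the gene-poor middle, the far block reached the near gene-dense blocks at about the level of its distance. The difference was 0.0292 ± 0.0281 with the block from 87 to 88 Mb, 0.0112 ± 0.0316 with that from 88 to 89 Mb, and 0.00634 ± 0.0341 with that from 86 to 87 Mb.

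With the block from 92 to 93 Mb, the difference was -0.0768 ± 0.0444 for the block from 87 to 88 Mb, -0.0741 ± 0.0469 for that from 88 to 89 Mb and -0.0346 ± 0.0461 for that from 86 to 87 Mb, all within 2 standard errors of 0. Within blocks, mean D′ was highest from 89 to 90 Mb (0.514 ± 0.0328), where Nog and Ankfn1 lie, and from 85 to 86 Mb (0.506 ± 0.0299). It was lowest from 92 to 93 Mb (0.405 ± 0.0302), which was also the block of lowest detection. The part of detection in these levels was not tested.

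**Figure D4:**
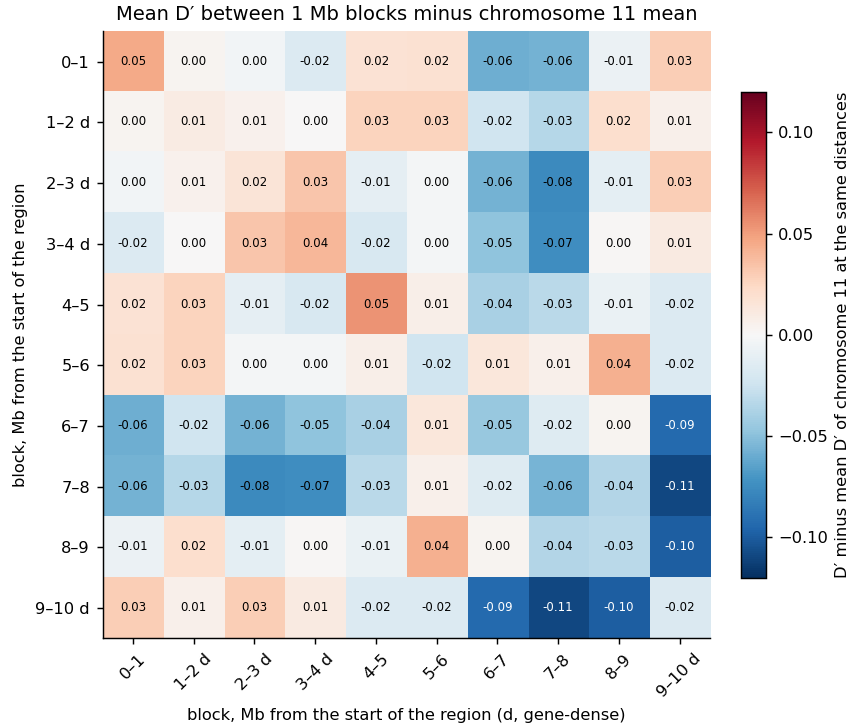
Mean D′ between each pair of 1 Mb blocks minus the mean D′ of chromosome 11 pairs at the same distances; axes give the distance from the start of the stretch in Mb, d marks gene-dense blocks, red is above and blue below the chromosome mean. The last block is below the chromosome mean with its 3 neighbours on the gene-poor side (-0.11 to -0.09).

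The density classes were also compared by the mean z-score of D′, with errors over libraries and over a wider range of distance. For pairs from 1 to 10 Mb apart, this mean was 0.135 between gene-dense blocks (3089 pairs), -0.0878 between gene-poor blocks (8175 pairs) and -0.281 between gene-dense and gene-poor blocks (13960 pairs). The gene-dense pairs exceeded the mixed pairs by 0.415 (95% jackknife interval -0.0122 to 0.843), and the gene-poor pairs exceeded them by 0.193 (-0.250 to 0.636), so both intervals included 0. With the Pearson correlation of the calls in place of D′, the gene-dense excess was 0.555 (SE 0.211). With D′ in the 54 libraries of the full collection alone, it was 0.0538 (SE 0.181). The z-score is scaled by the spread of D′ in each map, so values from different numbers of libraries are not on the same scale. Counted by library, at least 50% of the windows of a near gene-dense block (86 to 89 Mb) were positive in 95 libraries and of the far block in 42. Both held in 27 libraries, where the product of the frequencies gives 16.0. In 15 of these 27, under 50% of each of the blocks from 91 to 93 Mb was positive. The middle blocks reached 50% in 50 libraries, together with a near block in 31 (19.1 from the product) and with the far block in 15 (8.4). The product takes no account of coverage, which differs between libraries, and its part in these joint counts was not tested.

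The insulation score, the mean D′ between the 400 kb on either side of a window, described the domains. Over the stretch it was 0.412 ± 0.0479 (SD over windows), and over chromosome 11 it was 0.419 ± 0.0477. Local lows counted as minima when their prominence reached 0.5 SD of the chromosome's score. The stretch held 8 minima, as did the chromosome 4 stretch, and the 215 tiles of 10 Mb on the autosomes held 5 to 15 (median 11). Fewer than 8 were found in 4 tiles.

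From the near to the far end, minimum 1 lay at chr11:86280001-86320000, at Rnft1 and the S6 kinase gene Rps6kb1 (score 0.399 ± 0.0340, jackknife SE). Minimum 2 lay at chr11:87320001-87360000 inside Tex14, a gene of germ cell bridges (0.374 ± 0.0439). Minimum 3 lay at chr11:88080001-88120000 at 1700106J16Rik, before the 3′ end of Msi2 (0.412 ± 0.0401). Minimum 4, at chr11:88960001-89000000, held no protein-coding gene and separated Trim25, Coil and Msi2 from Nog (0.370 ± 0.0414). Minimum 5, at chr11:90480001-90520000, covered the starts of Stxbp4 and Cox11, a cytochrome c oxidase assembly gene (0.354 ± 0.0433). Minimum 6, at chr11:91880001-91920000, lay 461 kb from the nearest start, that of Kif2b, and had the lowest score (0.319 ± 0.0392) and the greatest prominence (4.17 SD). Minimum 7, at chr11:92960001-93000000, lay just inside Car10 (0.326 ± 0.0394), and minimum 8, at chr11:93800001-93840000, at the nucleoside diphosphate kinase genes Nme1 and Nme2 (0.319 ± 0.0405). The scores of minima 6, 7 and 8 differed by much less than their errors, so these 3 minima have no order.

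All 8 minima windows held a CTCF core match, as did 85.6% of all windows of the stretch, so the count is near the background. The mean was 4.38 matches per window at the minima and 3.09 over the stretch, which was not tested. Minimum 1 held 9 matches, minimum 8 held 7, and minima 5 and 7 held 1 each. The sequences printed for minima 4, 5 and 6 come from windows with 2, 1 and 4 matches.

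Between the minima lay domains of 760 to 1520 kb, besides those that reach past the ends of the stretch. The shortest, from 87.34 to 88.10 Mb, held 19 gene starts, among them Supt4h1, Rnf43, Srsf1 and Vezf1, and had the highest mean D′ at 200 to 400 kb (0.513 ± 0.0340, jackknife SE). The next, from 88.10 to 88.98 Mb, held Msi2, Coil and Trim25 among 9 starts (0.494 ± 0.0325). Nog and Hlf shared the domain from 88.98 to 90.50 Mb with Ankfn1, Tmem100 and Mmd (0.476 ± 0.0310), so minimum 4 lay between Msi2 and this pair. The domain from 91.90 to 92.98 Mb, with the start of Car10 alone, had the lowest value (0.386 ± 0.0328), the lowest GC content (38.02%) and the lowest mean detection (41 libraries).

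At the same distances, D′ was higher within the domains beside a minimum than across it for each of the 8, by 0.0241 ± 0.0249 (minimum 3) to 0.0821 ± 0.0362 (minimum 8). The minima were chosen from the same map, so these differences are a description. To use separate libraries, the libraries were divided 20 times into sets of 124 and 125, with numbers from each experiment that were equal or differed by 1. Minima found in either set were then read in the map of the other set. D′ was higher within than across for 309 of 404 such minima (76.5%), with means of 0.397 within and 0.367 across. The mean difference was 0.0300, and it was positive in all 40 maps (0.00162 to 0.0658). The sets overlap between divisions, so no test was made. The share of 76.5% was not counted for the autosomes, the chromosome 4 stretch or other positions, so its background is unknown.

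The positions of the minima returned unevenly in the smaller maps. Minimum 3 was found within 1 window in 39 of 40, minimum 4 in 32 and minimum 5 in 28, whereas minimum 6, the most prominent, was found in 19, minimum 2 in 17, minima 7 and 8 in 15 each, and minimum 1 in 11. In total 55% were found, against 54.4% of 2551 autosomal minima. When a set was compared with its complement, without the full map, 23.8% of the minima of the stretch matched, against 24.6% over the autosomes. The smaller maps held 8 to 13 minima in the stretch. Leaving out each experiment in turn gave 8 to 10 minima, and minima 3 and 4 were found in each of these 11 maps. Minimum 6 was lost in 6 of them (without the PCR cycles, eosin, freezing after incubation, kit, propidium iodide or proteinase K experiment). Minimum 7 was lost in 3 (without the cresyl violet, early freezing or full collection experiment) and minimum 8 in 1 (without the full collection). Minimum 1 was lost without the PCR cycles or the kit experiment, minimum 2 without the freezing after incubation or the kit experiment, and minimum 5 without the kit experiment. A square of 200 kb gave 22 minima, with 7 of the 8 among them (all but minimum 8), and a square of doubled width gave 7 minima, with 5 of the 8 among them, which left out minima 3, 7 and 8.

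**Figure D5:**
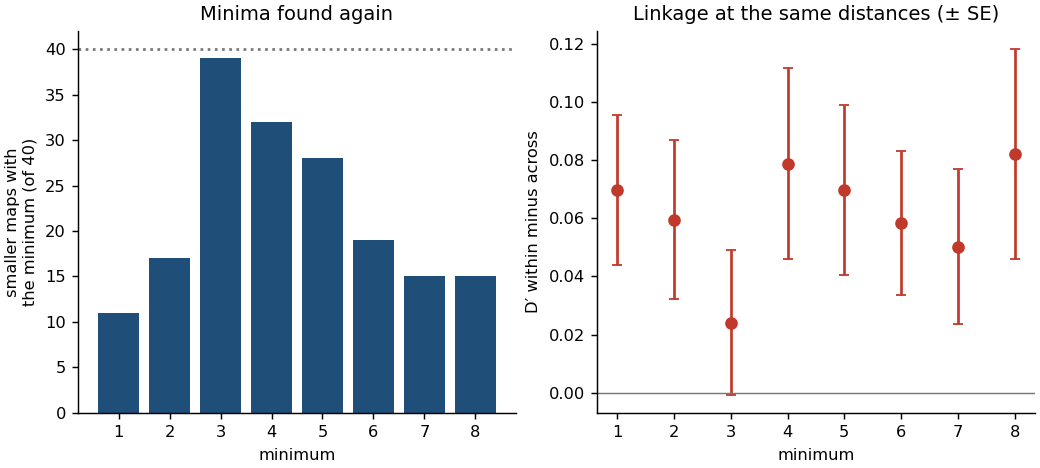
Left, number of 40 maps from 124 or 125 libraries in which each of the 8 minima was found within 1 window; the dotted line marks 40. Right, mean D′ within the domains beside each minimum minus that across it at the same distances, with the jackknife standard error over libraries; minimum 3 was found most often (39 of 40) and had the smallest difference (0.0241).

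Between maps from separate libraries, correlations were low for single pairs and higher for the smoothed insulation score, while the positions of minima matched in only 23.8%. The z-scores of D′ of pairs from 200 kb to 4 Mb in the stretch had a mean Pearson r of 0.0928 between sets (range 0.0282 to 0.149 over 20 divisions), and the chromosome 4 stretch had 0.0769. Over 215 autosomal tiles the mean values ran from -0.0155 to 0.450 with a median of 0.0575, and 170 tiles were below the stretch. The insulation score had a mean r of 0.346 (0.0777 to 0.595), against 0.394 in the chromosome 4 stretch and a median of 0.266 over the tiles, of which 149 were below. Pairs and windows share libraries and neighbours, so these values describe the maps and carry no p.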

How the data were processed

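The authors aligned reads to mm9 with Bowtie2 (version 2.1 in the submitters' notes), removed PCR duplicates with Samtools and called 40 kb windows with GAMtools, where 4 reads made a window positive. In the deposited table these calls are 0 or 1 for each of 249 libraries. It has no read counts, so the depth behind a call is unknown, no interval for depth was given and a 0 may be absence or too few reads. All columns were matched to sample labels and 0 were left over. Groups follow the titles, also where protocol texts disagree with them (SYBR Gold staining, proteinase K volumes). Protocols were compared only within an experiment, since differences between experiments and between their protocols cannot be told apart across experiments.

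The reference assembly had the chromosome lengths of the table, and genes came from GENCODE vM1. Maps used windows positive in at least 25 libraries. Errors were jackknife standard errors, leaving out 1 library at a time. Protocols were compared by permutation test with 100000 resamples, exact where a group held fewer than 10 libraries. Adjustment for multiple tests was by Benjamini-Hochberg, with a threshold of 0.05. Calculations used Python 3.11.15, numpy 2.4.6, pandas 2.3.3 and scipy 1.17.1. The pair test and the search for minima were also run on simulated data. For the pair test, windows were drawn without linkage except for chosen pairs, unlike these maps. The outcomes are not given here, and no result rests on them. The named genes were those of 26 listed genes whose start lies in the stretch (22). Also named were the 3 most and 3 least often positive windows with those tied, and all minima. The named pairs were those among Msi2, Nog and Hlf and the 5 pairs of lowest p from 1 to 4 Mb. The members and lists were chosen with earlier results of these data known. Alternatives were strata, minimum detection, linkage measure, square size, prominence and leaving out experiments or libraries.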

Additional observations from a re-analysis of the deposited data

Results flagged for a closer look

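In the proteinase K experiment, 1 of the 6 libraries of the 2 µl group was positive in 53.6% of the windows of the stretch. The next library of the group had 20.0% and the lowest 0%. The gap between the highest value and the next was larger than Dixon's 95% limit for 6 values. This library was positive in 8.51% of all windows. Of 18 groups tested in this way it was the only library past the limit. For normally distributed values chance gives about 1 in 20 groups. These percents have a floor at 0, which the group reached, so that rate may not hold here.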

How the results depend on the processing

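Of 304 recomputed values for 31 results, 279 kept their direction and their side of the threshold or, for counts, stayed within 1.5 times. With medians in place of means, 3 protocol contrasts that had not passed changed sign, to 1.23 (reagent protocols B minus A), 3.24 (frozen minus unfrozen) and 1.23 (large minus small kit). The contrast of 23 minus 20 PCR cycles ran from -18.8 to 0.941 when single libraries were left out. The cresyl violet count of 5 windows became 0 when windows had to be positive in 6 libraries and 8 with strata of coverage, and the pair count fell to 1825 in the full collection, which has fewer libraries. With coverage of at least 10%, the block from 91 to 92 Mb gave -3.25 and missed the threshold. Leaving out experiments, it ran from -4.38 to -2.19, the block from 85 to 86 Mb from 3.63 to 4.95 (adjusted p = 0.0597 without the propidium iodide test), and that from 93 to 94 Mb from -3.34 to -1.80 (passing without the kit or the reagent volumes experiment). The gene-dense minus mixed difference was 0.0538 in the full collection alone, 0.411 for pairs 1 to 4 Mb apart, 0.555 with Pearson correlation in place of D′ (interval above 0) and 0.262 to 0.467 without an experiment, passing without the PCR, early freezing, propidium iodide or reagent volumes experiment. The gene-poor minus mixed difference ran from 0.0727 to 0.285 without an experiment. A 200 kb square gave 22 minima. No paired analysis was possible because the replicate numbers only name libraries. Read depth is unknown, and the cause of these changes was not tested.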
